A study of Mus musculus with 4 samples.

Results

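The 10 genes described here mark germ cells or pluripotent cells: Dppa3, Dppa5a, Dnd1, Pou5f1, Dazl, Ddx4, Nanos3, Tfap2c, Sall4 and Ifitm1. The first 7 are counted together below, apart from Tfap2c, Sall4 and Ifitm1, which are also known from other embryonic tissues. That grouping was not made from these values, which go against it for Nanos3. All 10 were chosen by symbol, and each symbol names 1 of the 32285 genes in the deposited tables. Unique molecular identifiers (UMIs), each counted as 1 captured RNA molecule, were read for these genes in 4 single-cell libraries. The libraries came from CD31+ cells of the aorta-gonad-mesonephros region (AGM) of C57BL/6J mouse embryos at E11.5 (embryonic day). The freshly sorted cells had been divided by the intensity of TMRM, a dye that enters mitochondria in proportion to their membrane potential. The MMPlow and MMPhigh gates are represented by 2 libraries each, and the labels name no altered gene and no agent other than the dye. The labels do not say whether the libraries of a gate came from separate embryos, so p-values measure only the spread between these samples, which may be technical. The design text asks for the transcripts that go with mitochondrial activity and stem cell function, and for these 10 genes the comparison was of germ cells between the gates and of all other cells between the gates.

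Primordial germ cells, the precursors of sperm and eggs, migrate through the hindgut and dorsal mesentery and settle in the genital ridges beside the mesonephros, so an AGM dissection can hold them. They keep part of the pluripotency network, erase most of their DNA methylation, and carry CD31 on their surface, the protein that was used for the sort. Pou5f1 encodes the transcription factor OCT4, which maintains pluripotency and germ cell survival. Sall4 encodes a zinc-finger factor of pluripotent and several other embryonic tissues, and Tfap2c encodes an AP-2 factor that works with PRDM1 in germ cell specification. Dppa3 (Stella) encodes a protein that protects DNA methylation in the early embryo, and Dppa5a encodes a KH-domain RNA-binding protein of pluripotent cells. Dnd1, Nanos3, Dazl and Ddx4 encode RNA-binding proteins or, for Ddx4 (the Vasa homologue), an RNA helicase that germ cells need for survival or differentiation. Ifitm1 encodes an interferon-induced transmembrane protein found on early germ cells and on other cells.

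Promoter sequence is shown for 3 genes that differed in where their UMIs were found: Dazl and Pou5f1, whose UMIs in MMPhigh were mostly in germ cells, and Nanos3, whose UMIs were mostly in other cells. Each run is the 250 bases before a RefSeq transcript start (GRCm38.p6), 5′ to 3′ on the gene's own strand, and the capitals mark CpG dinucleotides, the sites where mammalian DNA is methylated. Dazl is chr17:50293621-50293870 (minus), Pou5f1 chr17:35505782-35506031 (plus, the first of its RefSeq starts) and Nanos3 chr8:84176553-84176802 (minus).
Dazl: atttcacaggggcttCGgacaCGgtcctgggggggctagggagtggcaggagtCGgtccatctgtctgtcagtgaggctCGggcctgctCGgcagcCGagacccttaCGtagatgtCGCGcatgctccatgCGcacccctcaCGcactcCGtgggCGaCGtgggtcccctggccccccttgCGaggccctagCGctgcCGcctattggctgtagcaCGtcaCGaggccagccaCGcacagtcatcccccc
Pou5f1: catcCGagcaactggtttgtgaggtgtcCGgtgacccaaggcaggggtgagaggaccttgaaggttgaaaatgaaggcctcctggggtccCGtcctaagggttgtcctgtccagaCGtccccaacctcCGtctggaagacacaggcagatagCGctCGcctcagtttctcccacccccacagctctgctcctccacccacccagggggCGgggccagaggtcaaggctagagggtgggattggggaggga
Nanos3: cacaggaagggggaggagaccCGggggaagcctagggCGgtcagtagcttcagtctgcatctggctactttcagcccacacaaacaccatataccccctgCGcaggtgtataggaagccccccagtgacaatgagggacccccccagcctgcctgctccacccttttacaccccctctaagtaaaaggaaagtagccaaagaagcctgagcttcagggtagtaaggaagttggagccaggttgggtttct
The Dazl promoter held 20 CpGs, against 8 for Pou5f1, 3 for Nanos3 and a median of 6 over 32851 mouse promoters of the same length. The letters CACGTG, an E-box that reads the same on both strands, are in 6.02% of all promoters, and GCGGGA (either strand), a core of E2F motifs, in 16.9%. Neither was found in the Dazl, Pou5f1 or Nanos3 window, and the Ddx4 window, which is not printed, held 31 CpGs and 1 match of each. No methylation or binding was measured in these libraries. RefSeq promoters were matched for 5 of the 10 genes.

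The genes lie on 8 chromosomes. In GRCm38 coordinates with GENCODE vM21 gene models, Dppa3 lay on chromosome 6 at 122626410 to 122630272 (plus strand) and Dppa5a on chromosome 9 at 78367052 to 78368177 (minus strand). Pou5f1 (35506018 to 35510772, plus strand) and Dazl (50279395 to 50293636, minus strand) lay on chromosome 17. Ddx4 lay on chromosome 13 at 112598333 to 112652475 (minus strand), and Ifitm1 on chromosome 7 at 140967221 to 140969825 (plus strand). Tfap2c (172549593 to 172558622, plus strand) and Sall4 (168748332 to 168767943, minus strand) lay on chromosome 2. Dnd1, on chromosome 18 at 36763671 to 36766214 (minus strand), overlaps Wdr55 on the opposite strand. Nanos3, on chromosome 8, has a GENCODE gene body of 84173731 to 84185217 (minus strand) that contains Mir181d and Mir181c on the same strand, while the RefSeq gene spans only 84173733 to 84176552. The gene model used for counting is not given in the sources used here, so UMIs listed for Nanos3 cannot be assigned to the shorter or the longer locus.

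The libraries kept 15698 (MMPlow 1), 18405 (MMPlow 2), 4139 (MMPhigh 1) and 3277 (MMPhigh 2) cells, with between 39111667 and 96702264 UMIs per library in these cells. MMPhigh 2 stood apart in depth, with a median of 22937 UMIs per cell against 3081.5 to 3796 in the others. Pairs of libraries shared between 14 and 369 barcode sequences. The gates held different cells: endothelial-like cells made up 47.3% and 45.5% of the MMPlow libraries but 0.290% and 0.397% of the MMPhigh libraries. Of the MMPhigh 1 cells, 65.1% were in clusters without a name. Outside germ cells, Pecam1, which encodes the CD31 used for the sort, stood at 276 and 262 CPM (UMIs per 1000000 UMIs of the cells summed) in MMPlow and 23.1 and 20.4 CPM in MMPhigh. Each sum over all cells compares mixtures of cells. Where 4 values follow each other, they stand in the order MMPlow 1, MMPlow 2, MMPhigh 1 and MMPhigh 2. In sums of cells, fewer cells of a type and less RNA per cell cannot be told apart.

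Germ cells were found by clustering with the 10 genes left out and, after seeing the data, clustering 1 mixed cluster of 504 cells again, and the clusters were named from 17 other germ cell genes such as Utf1, Mael and Rhox6. This gave 125 germ cell-like cells: 23 in MMPlow 1, 26 in MMPlow 2, 32 in MMPhigh 1 and 44 in MMPhigh 2. They were 0.147% and 0.141% of the retained MMPlow cells and 0.773% and 1.34% of the MMPhigh cells, a log2 fold of 2.86 (SE 0.447) with an adjusted p of 0.0166 by edgeR's quasi-likelihood test over named classes. The call was lost without MMPlow 1 (adjusted p = 0.201), without MMPlow 2 (adjusted p = 0.210) and with a looser cell filter (adjusted p = 0.324). The summed UMIs of the 17 germ genes in these cells were 1384 and 1805 CPM in MMPlow and 2860 and 2901 in MMPhigh, and Pecam1 stood at 143, 137, 164 and 147 CPM. The germ cells of the gates came from different clusters. Cluster 30 held 46 of the 49 MMPlow germ cells and 2 of the MMPhigh cells, while cluster 28 held none of MMPlow, 13 cells of MMPhigh 1 and all 44 of MMPhigh 2. The remaining 20 cells, 17 of them in MMPhigh 1, formed cluster 33. Gate and cluster largely cannot be told apart in the comparisons of germ cells that follow. In cluster 30, the 2 cells of MMPhigh 1 stood at 769 CPM for Dppa5a (15 UMIs) and 256 CPM for Dppa3 (5 UMIs). MMPlow stood there at 890 and 1198 CPM and at 267 and 205 CPM. The higher MMPhigh level of Dppa5a and Dppa3 described next was thus not seen in cluster 30. Ifitm1, also described next, was higher in these 2 cells, at 462 CPM (9 UMIs) against 208 and 287 CPM in MMPlow. In cluster 33, Dppa5a stood at 3390 and 262 CPM (9 and 3 UMIs) in the 1 and 2 cells of MMPlow. It stood at 3707 CPM (270 UMIs) in the 17 cells of MMPhigh 1. Ifitm1 stood at 753 and 1397 CPM (2 and 16 UMIs, 14 of the latter in 1 cell) in the same MMPlow cells and at 1387 CPM (101 UMIs) in MMPhigh 1. In these MMPlow cells 3 UMIs amount to 1130 and 262 CPM, so levels there cannot be compared closely.

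Within germ cells, Dppa3, Dppa5a and Ifitm1 rose in MMPhigh, with fitted folds of 3.04 to 3.47, and none of the tested genes of the set fell. These were 3 of the 9 genes that passed the filter on low counts, all 3 higher, where 8.29% of the 5792 genes tested in germ cells were called, 5.01% higher and 3.28% lower. Dppa5a stood at 984 and 1099 CPM in MMPlow and at 3493 and 3165 CPM in MMPhigh (3.47-fold, log2 fold 1.79, SE 0.204, edgeR adjusted p = 2.21e-07). Dppa3 stood at 271 and 257 CPM in MMPlow and at 893 and 763 CPM in MMPhigh (3.42-fold, log2 fold 1.78, SE 0.245, edgeR adjusted p = 8.70e-06). Ifitm1 stood at 228 and 403 CPM in MMPlow and at 938 and 897 CPM in MMPhigh (3.04-fold, log2 fold 1.60, SE 0.242, edgeR adjusted p = 4.07e-05). For all 3 genes both MMPhigh libraries lay above both MMPlow libraries. With 2 libraries against 2, an exact permutation test of such an order cannot go below 0.333, here and in later comparisons. The share of all genes tested with such an order was not counted. The sums rest on 69 and 120 Dppa5a UMIs in MMPlow against 1937 and 6764 in MMPhigh. With each germ cell thinned to 2000 UMIs the same 3 genes were called, and with germ cells taken by their UMIs for the 17 germ genes, without clusters, the Ifitm1 call was lost (adjusted p = 0.0763).

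**Figure D1:**
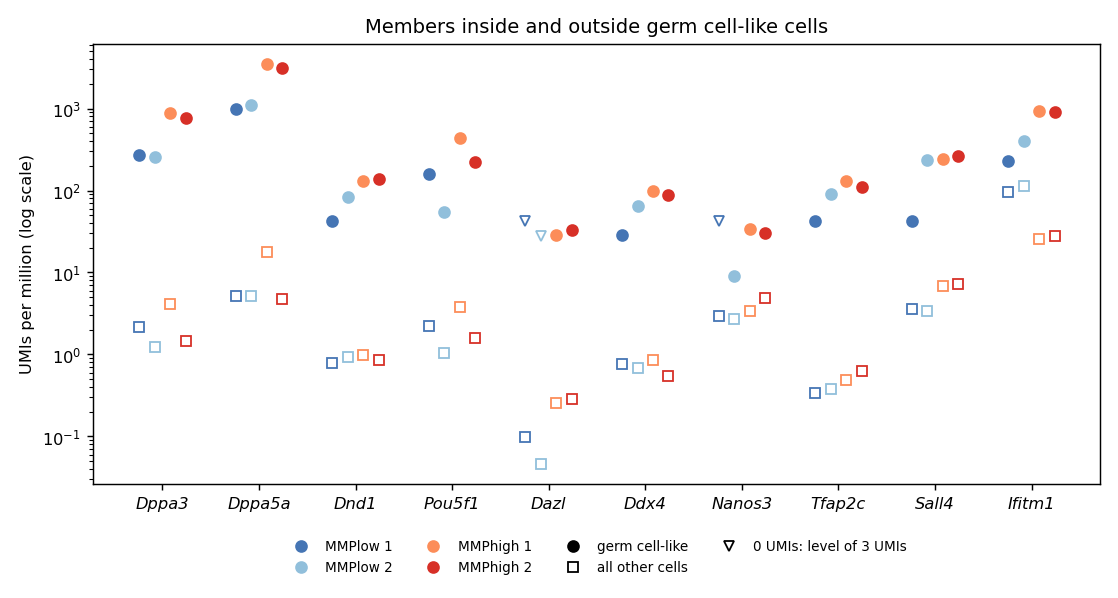
Level of each gene per library in germ cell-like cells (filled circles) and in all other retained cells (open squares), in CPM on a log axis; open triangles stand for 0 UMIs and are drawn at the level of 3 UMIs. Dppa5a lies at 984 to 3493 CPM in germ cells and at 4.72 to 17.6 CPM outside them, and for Dppa3, Dppa5a and Ifitm1 both MMPhigh circles lie above both MMPlow circles.

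The transcription factors of the set did not pass edgeR's test in germ cells, and for Pou5f1 and Sall4 that depended on the settings. Pou5f1 stood at 157 and 55.0 CPM in MMPlow and at 433 and 221 CPM in MMPhigh, from 11 and 6 UMIs in MMPlow (log2 fold 1.83, edgeR adjusted p = 0.133). Tfap2c stood at 42.8, 91.6, 132 and 111 CPM (log2 fold 0.83, edgeR adjusted p = 0.208). Sall4 stood at 42.8, 238, 243 and 261 CPM (log2 fold 0.80, edgeR adjusted p = 0.168). For each of these genes both MMPhigh values lay above both MMPlow values, which with 2 libraries against 2 is no test. For Sall4, MMPlow 2 lay close to MMPhigh 1, and MMPlow 1, with 3 UMIs, was the library that stood apart. Pou5f1 was called higher with DESeq2's Wald test, with the replicate number as a block, and without MMPlow 1, MMPhigh 1 or MMPhigh 2, and Sall4 was called higher without MMPlow 2, without the filter on low counts, with the 10 genes allowed in the clustering and at a finer clustering.

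Dnd1, Ddx4, Nanos3 and Dazl, the RNA-binding genes of germ cell survival and differentiation, did not pass edgeR's test either, and each had 9 UMIs or fewer per library in MMPlow germ cells. Dnd1 stood at 42.8, 82.5, 132 and 137 CPM (log2 fold 1.14, edgeR adjusted p = 0.0627) and Ddx4 at 28.5, 64.1, 99.2 and 87.5 CPM (log2 fold 0.99, edgeR adjusted p = 0.191). Nanos3 stood at 0, 9.16, 34.3 and 30.4 CPM, from 0 and 1 UMI in MMPlow and 19 and 65 in MMPhigh (log2 fold 2.58, edgeR adjusted p = 0.140). It passed the filter on low counts through MMPhigh alone. Dnd1 and Ddx4 had both MMPhigh values above both MMPlow values, while a count of 0 in MMPlow 1 allows a Nanos3 level of up to 42.8 CPM. Dazl had no UMI in the germ cells of either MMPlow library, and 16 and 71 UMIs (28.9 and 33.2 CPM) in MMPhigh. It did not pass the filter on low counts. The count of 0 allows up to 42.8 CPM in MMPlow 1 and 27.5 CPM in MMPlow 2, so a difference was not detectable against MMPlow 1 alone. Against a floor of 3 UMIs over both MMPlow libraries, the mean MMPhigh level was 1.85-fold higher. That ratio covers counting error only, not the spread between libraries or cells, so it is no lower bound. How many of the 10 genes were called in germ cells depended on the settings: 7 without the filter on low counts, 6 with a looser cell filter, 6 with the 10 genes allowed in the clustering, and 6 at a finer clustering. The share of all tested genes called was 3.64%, 10.6%, 12.8% and 12.5% in these settings. Dnd1 and Pou5f1 were called in all 4 of them, Dazl in the first 2, and Dnd1 also without MMPhigh 1.

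Other measures moved with the gate in the same germ cells. The median germ cell of MMPlow held 2845 and 3952 UMIs and that of MMPhigh 5830.5 and 47231 UMIs, and the median share of mitochondrially encoded UMIs was 8.14% and 8.76% in MMPlow and 3.91% and 3.99% in MMPhigh. Markers of most other cell types had higher sums in the MMPlow germ cells. Neural or neural crest markers went the other way, with 157 and 183 CPM in MMPlow against 317 and 367 CPM in MMPhigh. The epithelial or mesonephric and the mesothelial or gonadal ridge markers overlapped between the gates. The 10 endothelial markers summed to 642 and 623 CPM in MMPlow, with all 10 detected, against 220 and 197 CPM in MMPhigh. Of these 10, 6 and 8 were detected in MMPhigh, with Emcn and Tie1 at 0 in both libraries. As a share of the sum over all retained cells of the same library, the endothelial sums were 24.6%, 24.7%, 172% and 178%. On that measure the endothelial markers were thus higher in MMPhigh germ cells, while the lists given next stayed higher in MMPlow. The 10 megakaryocyte markers summed to 528 and 486 CPM against 23.5 and 24.3, the granulocyte or mast markers to 314 and 321 CPM against 25.3 and 17.8, and the macrophage markers to 200 and 275 CPM against 74.0 and 45.9. The part of these in the differences of Dppa5a, Dppa3 and Ifitm1 was not tested.

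Counted per cell, Dppa5a was found in 17 of 23, 21 of 26, 32 of 32 and 44 of 44 germ cells, and Dppa3 in 12, 14, 31 and 44 of them. Pou5f1 was found in 9, 5, 27 and 43, and Dazl in 0, 0, 6 and 20. The shares cannot be compared between libraries of such different depth, and only MMPhigh 2, the deepest, was described cell by cell. There the median germ cell held 144 Dppa5a UMIs (range 13 to 379), 38.5 Dppa3 UMIs (4 to 84) and 44 Ifitm1 UMIs (5 to 88). The median cell held 12.5 Sall4, 11 Pou5f1, 6 Dnd1, 5 Tfap2c, 2.5 Ddx4 and 1 Nanos3 UMI. Dazl differed from the others: it was found in 20 of the 44 cells, the median cell had none, and the highest held 15 UMIs. Over these 44 cells of 1 library, which share their library and range widely in depth, Pearson's correlation of the per-cell levels was 0.57 between Sall4 and Ifitm1, 0.56 between Dnd1 and Ifitm1, and −0.39 between Dazl and Ifitm1, given as a description.

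**Figure D2:**
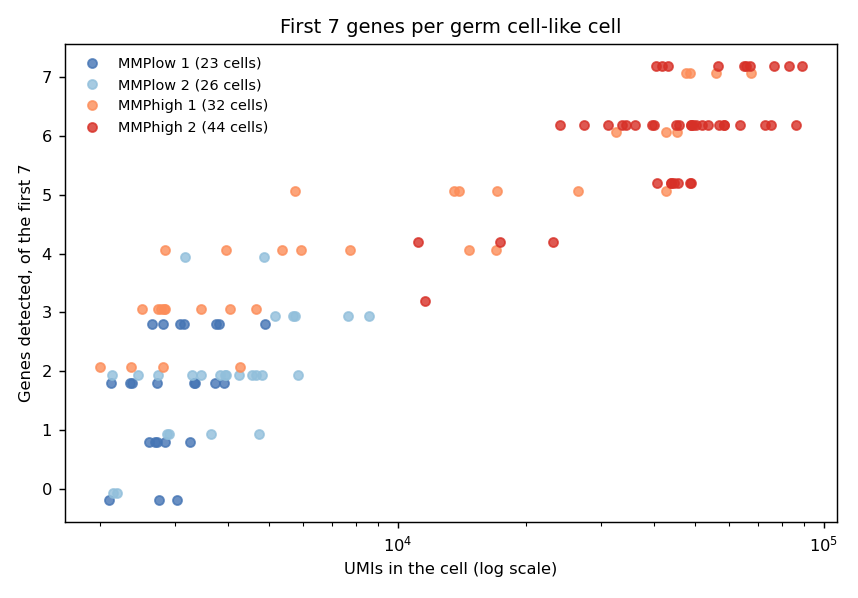
Number of the first 7 genes with a UMI in each germ cell-like cell, against the UMIs of the cell on a log axis, with 1 point per cell and colours for the libraries. Cells of MMPhigh 2 hold 3 to 7 of the genes and lie at the deep end of the axis, and those of MMPlow 1 hold 0 to 3.

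Several other germ and pluripotency genes moved in the germ cells too, counted from 5 lists of 96 genes with none of the 10 members. Some list genes, Utf1 and Rhox6 among them, were also among the 17 genes that named the germ clusters. Their calls are not independent of how the cells were found. Of the pluripotency network, 18 genes were tested and 7 rose in MMPhigh (Nanog, Sox2, Utf1, Zfp42, Dppa4, L1td1 and Tdh), with none lower and a median log2 fold of 1.26, against a median of −0.001 over all genes tested, of which 5.01% were called higher and 3.28% lower. Nanog, a core pluripotency factor, had no UMI in MMPlow and stood at 57.7 and 92.2 CPM in MMPhigh. It therefore passed the filter on low counts through MMPhigh alone. Against a floor of 3 UMIs over the MMPlow group, its mean MMPhigh level was 4.48-fold higher. That ratio covers counting error only, not the spread between libraries or cells. Tdh, a threonine dehydrogenase of pluripotent cells, stood at 85.6 and 55.0 CPM in MMPlow and 269 and 300 CPM in MMPhigh (log2 fold 2.21). Zfp42 (Rex1), a marker of naive pluripotency, stood at 0 and 36.7 CPM against 66.7 and 98.3 CPM (log2 fold 2.09), from 0 and 4 UMIs in MMPlow. Of the germline and piRNA list, 13 genes were tested and 2 homeobox genes, Rhox6 and Rhox9, rose, with a median log2 fold of 0.27. Rhox6 stood at 257 and 202 CPM against 583 and 533 CPM (log2 fold 1.43).

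Among 11 tested genes of germ cell specification, migration and surface, Ifitm2 and Ifitm3 rose and Kit (log2 fold −0.86, edgeR adjusted p = 0.0244) and Itgb1 (log2 fold −0.86, edgeR adjusted p = 0.0490) fell, with a median log2 fold of −0.04. Ifitm3, a neighbour of Ifitm1 in the same family and also known as Fragilis, stood at 285 and 421 CPM in MMPlow and 1140 and 948 CPM in MMPhigh (log2 fold 1.64). Kit encodes the receptor through which Kit ligand keeps germ cells alive, and Itgb1 an integrin used in their migration. Of 6 tested genes of DNA methylation, Trim28 rose (log2 fold 1.03), with a list median of −0.30. Of 7 tested genes from the families of the 10 members, 3 rose (Ifitm2, Ifitm3 and Dppa4), with a median of 1.18. Over all 5792 genes tested in germ cells, 5.01% were called higher and 3.28% lower. Only 50 of the 96 genes passed the filter on low counts, which a gene can pass through the gate where it is high.

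Germ cells held most UMIs of Tfap2c and of 6 of the first 7 genes in MMPhigh, all but Nanos3, and 0% to 23.3% of them in MMPlow. The share of all Dppa5a UMIs found in germ cells was 17.6% and 21.1% in MMPlow and 74.1% and 93.8% in MMPhigh, and that of Dppa3 was 12.6% and 20.9% against 75.5% and 92.2%. The shares for Tfap2c were 12.5%, 23.3%, 79.3% and 80.1%. Pou5f1 (7.43%, 6.25%, 61.9% and 75.9%), Dnd1 (5.77%, 10.1%, 65.8% and 78.6%), Ddx4 (4.08%, 10.6%, 62.5% and 78.6%) and Dazl (0%, 0%, 61.5% and 72.4%) were alike in this. Nanos3 differed, with 0%, 0.429%, 12.8% and 12.3% of its UMIs in germ cells. Sall4 (1.33%, 8.05%, 33.8% and 45.0%) and Ifitm1 (0.273%, 0.444%, 34.7% and 42.0%) lay between in MMPhigh. Germ cells held 0.114% and 0.126% of all UMIs in MMPlow and 1.42% and 2.21% in MMPhigh.

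Summed over all retained cells, 9 of the 10 genes were higher in MMPhigh and Ifitm1 was lower. All 10 passed edgeR's test, where 53.8% of the 20357 genes tested did, 27.3% higher and 26.5% lower, and the median log2 fold of the 10 was 2.08 against 0.01 over all genes. Dppa5a stood at 6.35 and 6.56 CPM in MMPlow and 66.9 and 74.6 CPM in MMPhigh (log2 fold 3.49, SE 0.0950, edgeR adjusted p = 1.37e-07). Dppa3 stood at 2.45 and 1.54 CPM against 16.8 and 18.3 CPM (log2 fold 3.19), Pou5f1 at 2.40 and 1.11 CPM against 9.92 and 6.44 CPM (log2 fold 2.28), and Tfap2c at 0.390 and 0.495 CPM against 2.35 and 3.06 CPM (log2 fold 2.64). For each of these the gates did not overlap. Dazl (log2 fold 3.66), Dnd1 (1.88), Ddx4 (1.64) and Sall4 (1.68) were also higher in MMPhigh. Dazl, with 6 and 4 UMIs in MMPlow, passed the filter on low counts through MMPhigh alone. Nanos3 had the smallest difference, 2.92 and 2.68 CPM against 3.78 and 5.45 CPM (log2 fold 0.77, SE 0.199, edgeR adjusted p = 0.0116), and its call was lost without MMPlow 2 or without MMPhigh 2, at an adjusted p of up to 0.0827. Ifitm1 stood at 95.1 and 114 CPM in MMPlow and 38.3 and 47.2 CPM in MMPhigh (log2 fold −1.26, SE 0.128, edgeR adjusted p = 1.32e-04).

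Outside germ cells every one of the 10 genes had UMIs in all 4 libraries. Dppa5a stood there at 5.24, 5.19, 17.6 and 4.72 CPM, Dppa3 at 2.15, 1.22, 4.18 and 1.46 CPM, and Pou5f1 at 2.23, 1.04, 3.84 and 1.59 CPM, each highest in MMPhigh 1. Dnd1 (0.797 to 0.986 CPM), Ddx4 (0.539 to 0.856 CPM) and Tfap2c (0.341 to 0.624 CPM) lay under 1 CPM in every library, and Dazl lay at 0.0975, 0.0461, 0.259 and 0.286 CPM. Thinned to 2000 UMIs, 3.03%, 2.66%, 8.67% and 2.35% of the cells outside the germ class had a UMI of any of the first 7 genes, against 78.3%, 92.3%, 100% and 100% of germ cells. Without Nanos3 the shares outside were 2.50%, 2.14%, 8.08% and 1.36%. Unthinned and with Nanos3, the shares outside were 5.11%, 5.03%, 16.8% and 22.9%. A few clusters stood above the rest. Over clusters of at least 50 cells outside the germ class, the median Dppa5a level was 5.28, 4.51, 4.43 and 2.30 CPM, while the highest reached 18.1 and 18.9 CPM in MMPlow and 88.1 and 118 CPM in MMPhigh. In MMPhigh 2 the highest rested on 1 cell, which gave 168 of the 171 Dppa5a UMIs of the cluster. Both MMPhigh maxima were in cluster 13, which had no name, led with Hbb-bs and Ppbp, and held 1261 cells of MMPhigh 1 and 132 of MMPhigh 2 but only 15 of MMPlow.

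By class, germ cells had the highest mean level over libraries for every gene but Ifitm1, and the order behind them differed between genes. For Dppa5a, the mean was 2186 CPM in germ cells (984 to 3493), 19.7 CPM in clusters without a name (6.12 to 47.0) and 11.7 CPM in megakaryocyte-like cells (4.52 to 25.7). For Dppa3, germ cells (257 to 893 CPM) were followed by clusters without a name (1.22 to 10.9 CPM). For both genes the ranges of clusters without a name and of megakaryocyte-like cells overlapped. In megakaryocyte-like cells of MMPhigh 2, 1 cell gave 101 of the 106 Dppa5a UMIs and 32 of the 35 Dppa3 UMIs, so their place in the order rests on it. For Nanos3, germ cells had a mean of 18.5 CPM with a range of 0 to 34.3, which overlaps neural or neural crest-like cells (mean 8.49 CPM, 6.89 to 10.9), mesenchymal-like cells (mean 6.07 CPM, 5.13 to 6.51) and muscle progenitor-like cells (mean 5.59 CPM, 3.66 to 8.63). The range of Dazl in germ cells also began at 0 (0 to 33.2 CPM) and overlapped other classes, such as clusters without a name (0.0765 to 0.560 CPM). In erythroid-like cells the Nanos3 mean was 0.371 CPM. Sall4 stood at 42.8 to 261 CPM in germ cells, then at 12.5 to 28.3 CPM in epithelial or mesonephric-like cells, 6.13 to 12.9 CPM in neural or neural crest-like cells, 5.58 to 18.3 CPM in clusters without a name and 6.16 to 11.1 CPM in mesenchymal-like cells, and only germ cells lay clear of the next class. Tfap2c in epithelial or mesonephric-like cells (16.7, 13.0, 0 and 6.19 CPM) rested on 8, 7, 0 and 2 UMIs.

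**Figure D3:**
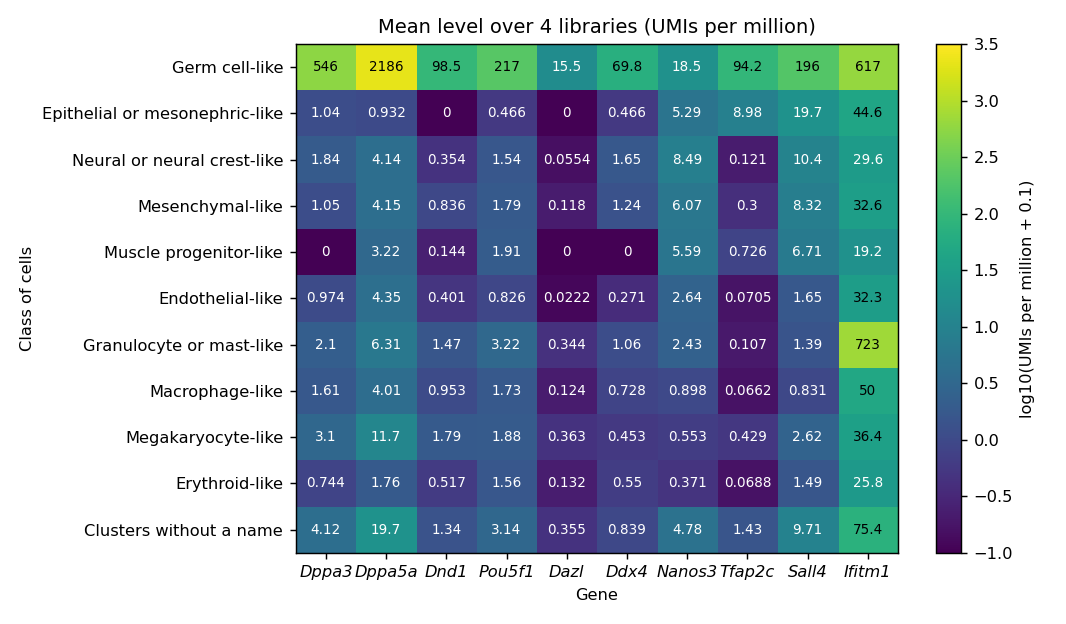
Mean level over the 4 libraries of each gene (columns) in each class of cells (rows), printed in CPM and coloured by log10(CPM + 0.1). Germ cell-like cells have the highest mean for every gene but Ifitm1, where granulocyte or mast-like cells stand at 723 CPM and germ cell-like cells at 617 CPM with overlapping libraries.

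The relative amounts of the genes differed between germ cells and other cells for some genes and not for others. For each 100 Dppa5a UMIs, germ cells held 27.5, 23.3, 25.6 and 24.1 Dppa3 UMIs, and other cells held 41.0, 23.6, 23.7 and 30.9. For Nanos3 the ratio was 0, 0.833, 0.981 and 0.961 in germ cells and 55.9, 51.6, 19.0 and 104 in other cells, and for Sall4 it was 4.35, 21.7, 6.97 and 8.25 against 69.3, 66.0, 39.1 and 153. For these 2 genes every ratio outside germ cells lay above every ratio inside. Outside germ cells in MMPhigh 2, 2 cells held 168 and 101 of the 446 Dppa5a UMIs, and without them the ratios there were 259 for Nanos3, 373 for Sall4 and 45.2 for Dppa3. Ifitm1 was also apart, at 23.2, 36.7, 26.8 and 28.4 in germ cells against 1814, 2191, 144 and 593 in other cells. Pou5f1 (5 to 15.9 against 20 to 42.5) lay closer together, though here too every ratio outside lay above every ratio inside. The ranges of Dnd1 (3.77 to 7.5 against 5.60 to 17.9) and Ddx4 (2.76 to 5.83 against 4.87 to 14.6) overlapped. Barcodes under 2000 UMIs, which were not retained as cells, held 28.7, 29.8, 25.5 and 0 Dppa3 UMIs and 19.3, 22.6, 5.40 and 13.3 Nanos3 UMIs per 100 Dppa5a UMIs.

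**Figure D4:**
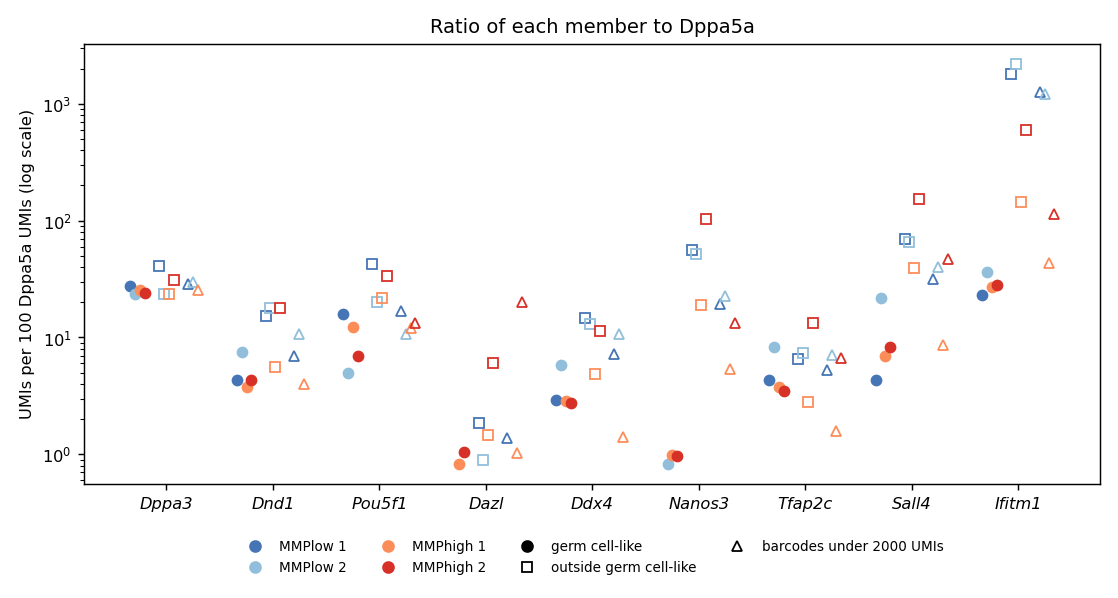
UMIs of each gene per 100 Dppa5a UMIs in the same library, in germ cell-like cells (circles), in other retained cells (squares) and in barcodes under 2000 UMIs (triangles), on a log axis; ratios of 0 are not drawn. Dppa3 lies at 23.3 to 27.5 in germ cells and 23.6 to 41.0 in other cells, and the other genes except Tfap2c lie higher in other cells in every library.

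Between the gates, 4 of the 10 genes passed the test outside germ cells, where 53.1% of the 20267 genes tested did, 26.9% higher and 26.2% lower. Sall4 rose, from 3.63 and 3.42 CPM in MMPlow to 6.87 and 7.21 CPM in MMPhigh (log2 fold 1.05, SE 0.141, edgeR adjusted p = 3.57e-04). Nanos3 rose, from 2.93 and 2.68 CPM to 3.35 and 4.89 CPM (log2 fold 0.62, SE 0.205, edgeR adjusted p = 0.0319). Dazl rose, with 6 and 4 UMIs in the MMPlow libraries and 10 and 27 in the MMPhigh libraries (log2 fold 2.03, SE 0.509, edgeR adjusted p = 0.00965). It passed the filter on low counts through MMPhigh alone. Of these Dazl UMIs, 1, 1, 6 and 12 lay in the 4, 1, 26 and 14 cells that held 3 or more of the first 7 genes, Dazl included. Ifitm1 fell, from 94.9 and 114 CPM to 25.3 and 28.0 CPM (log2 fold −1.92, SE 0.112, edgeR adjusted p = 2.22e-06). In each case both libraries of 1 gate lay beyond both of the other, and the gates differ in their classes of cells. Sall4 and Ifitm1 were called in all 17 alternatives run. Leaving out MMPlow 2 or MMPhigh 2, or using DESeq2's Wald test, ended the calls of both Dazl and Nanos3. Leaving out MMPlow 1, the stricter cell filter and leaving out clusters of mostly 1 library each ended that of Nanos3, and Dazl was not called in the last 2 of these either.

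The other 6 genes did not pass this test outside germ cells, 4 of them did under other settings, and for some the direction varied with the cells included. With the replicate number as a block, Dppa3 (log2 fold 0.67, edgeR adjusted p = 0.0292) and Pou5f1 (log2 fold 0.75, edgeR adjusted p = 0.00863) were called higher. Without the clusters of mostly 1 library, Dppa5a was lower in MMPhigh (log2 fold −0.65, edgeR adjusted p = 0.0138). These were clusters 12, 13 and 16, large clusters without a name in which 1 library held over 80% of the cells. With doublets kept, 7 genes were called, Dppa5a, Dppa3 and Tfap2c among them as higher, where 53.2% of all genes tested were called. Dppa5a was also called higher with the stricter cell filter, and Dppa5a and Dppa3 without MMPhigh 2.

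A small number of cells outside the germ class held several of the genes at once. At least 3 of the first 7 genes were found in 7, 7, 28 and 44 germ cells and in 4, 1, 26 and 14 other cells, which is 0.0255%, 0.00544%, 0.633% and 0.433% of the other cells. Of the 26 in MMPhigh 1, 20 were in cluster 13, with a median depth of 3825 UMIs. The counts above were not thinned, and MMPhigh 2 was the deepest library. With cells thinned to equal depth, at least 2 of the first 7 genes were found in 13, 8, 41 and 1 other cells. These were 0.0829%, 0.0435%, 0.998% and 0.0309% of the other cells. On that measure MMPhigh 1 lay above both MMPlow libraries and MMPhigh 2 below both. In MMPhigh 2, a cell of cluster 13 with 75869 UMIs held all 7 genes, with 168 Dppa5a and 26 Dppa3 UMIs. A megakaryocyte-like cell of the same library with 91460 UMIs held 101 Dppa5a and 32 Dppa3 UMIs. Both Dppa5a counts and both Dppa3 counts lie within the range of the germ cells of MMPhigh 2, the deepest of which had 89044 UMIs. The single megakaryocyte-like cell gave 101 of the 106 Dppa5a UMIs of its class in MMPhigh 2.

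Within the 7 other classes that could be tested, 23 tests of members were made and 8 passed, 6 of them for Ifitm1 and 2 for Dppa5a. Of all genes tested, 2.15% to 43.3% were called, depending on the class. In megakaryocyte-like cells, where 14.4% of genes were called (5.69% higher and 8.67% lower), Dppa5a stood at 6.29, 4.52, 10.4 and 25.7 CPM (log2 fold 2.03, SE 0.413, edgeR adjusted p = 0.00996). Without MMPhigh 2, where 1 cell gave most of the UMIs, the adjusted p was 0.208. In mesenchymal-like cells, where 18.6% were called (6.82% higher and 11.8% lower), Dppa5a stood at 8.33, 4.69, 1.85 and 1.74 CPM (log2 fold −1.79, SE 0.425, edgeR adjusted p = 0.0111), with 14 of the 46 UMIs of MMPlow 1 in 1 cell. With doublets kept, the latter turned to a log2 fold of 1.54 (edgeR adjusted p = 0.548), and it was not called without MMPlow 1 (adjusted p = 0.188), without MMPhigh 2 (adjusted p = 0.101) or with DESeq2's Wald test (adjusted p = 0.0673). Sall4 was not called in mesenchymal-like cells (6.16, 6.30, 11.1 and 9.69 CPM, log2 fold 0.77, edgeR adjusted p = 0.0540) or neural or neural crest-like cells (6.13, 10.0, 12.9 and 12.5 CPM, log2 fold 0.63, edgeR adjusted p = 0.224). Nanos3 had log2 folds of 0.26 and 0.24 in these classes and was not called. Neural or neural crest-like cells made up 1.43% and 1.42% of MMPlow and 9.18% and 25.5% of MMPhigh.

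Ifitm1 was lower in MMPhigh in 6 classes, not called in granulocyte or mast-like cells, and higher in germ cells. In macrophage-like cells, where 43.3% of genes were called (21.5% higher and 21.8% lower), Ifitm1 stood at 83.7 and 77.4 CPM in MMPlow and 19.6 and 19.1 CPM in MMPhigh (log2 fold −1.80, SE 0.105, edgeR adjusted p = 1.00e-06). In erythroid-like cells, where 35.5% were called (16.4% higher and 19.1% lower), it stood at 54.7 and 40.7 CPM against 4.50 and 3.28 CPM (log2 fold −3.41, SE 0.201, edgeR adjusted p = 7.59e-09). In megakaryocyte-like cells the values were 74.7, 55.2, 3.67 and 11.9 CPM (log2 fold −2.65, edgeR adjusted p = 0.00233), and in mesenchymal-like cells 59.4, 51.9, 10.8 and 8.24 CPM (log2 fold −2.54, edgeR adjusted p = 1.11e-06). The gates did not overlap in any of these classes. In neural or neural crest-like cells, where 12.1% were called (4.55% higher and 7.53% lower), the values were 52.1, 61.5, 1.69 and 3.08 CPM (log2 fold −4.40, edgeR adjusted p = 3.27e-05), and the call was lost with doublets kept (log2 fold −3.31, adjusted p = 0.0893) or as the caller marked them (log2 fold −3.37, adjusted p = 0.0634). In muscle progenitor-like cells, where 2.15% were called (0.24% higher and 1.91% lower), they were 39.1, 32.9, 3.82 and 0.863 CPM (log2 fold −4.67, edgeR adjusted p = 8.95e-04), with 2 and 3 UMIs in MMPhigh. There Ifitm1 passed the filter on low counts through MMPlow alone.

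**Figure D5:**
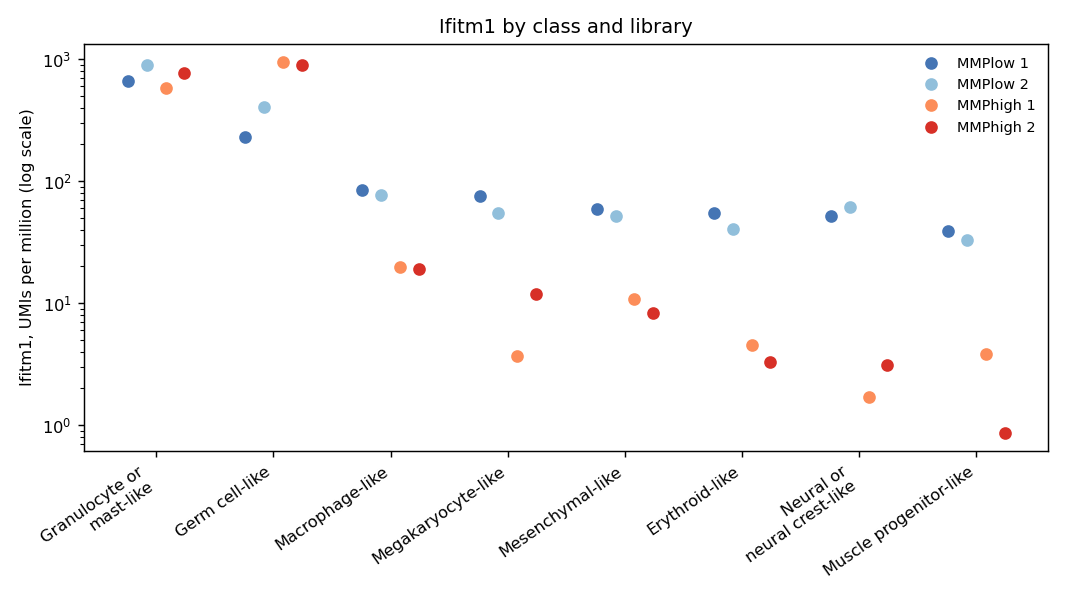
Ifitm1 level in each tested class of cells, in CPM on a log axis with 1 point per library. The MMPhigh points lie below the MMPlow points in 6 classes, overlap them in granulocyte or mast-like cells (575 to 887) and lie above them in germ cell-like cells.

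In granulocyte or mast-like cells, where 23.5% of genes were called (12.4% higher and 11.1% lower), Ifitm1 stood at 658, 887, 575 and 771 CPM with the gates overlapping (log2 fold 0.05, edgeR adjusted p = 0.875). These cells held 31.6%, 41.9%, 25.3% and 33.1% of all Ifitm1 UMIs of their library but 4.56%, 5.39%, 1.69% and 2.03% of all UMIs. They were 5.18% and 5.67% of MMPlow cells and 0.991% and 2.08% of MMPhigh cells. Barcodes under 2000 UMIs held Ifitm1 at 191, 161, 45.1 and 24.3 CPM, higher in MMPlow than in MMPhigh as well. In all 6 classes where Ifitm1 was lower in MMPhigh, its level lay under that of these barcodes in each of the 4 libraries. The part of RNA from other cells in the class levels was not tested.

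Over all genes outside the set, those whose level over 36 sums of class and library was most like the mean of the first 7 genes were BC048679 (Pearson's r 0.996), Tex19.1 (0.995), Zfp936 (0.995), Zfp978 (0.993) and Dppa4 (0.992), out of 13227 genes. The sums share libraries and differ in depth, and 4 of them are germ cells. Tfap2c was most like Elf3 (0.987), with L1td1 at 0.974, and Sall4 most like Ankrd45 (0.969), L1td1 (0.958) and Syt9 (0.956). For Ifitm1 the highest values were lower, with Dusp5 (0.863), Gcnt2 (0.857) and Dmac2 (0.830).

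The same lists were counted in the sums of cells. Over all retained cells 17 of 22 tested genes of the pluripotency network were higher in MMPhigh and 3 lower, with a median log2 fold of 2.17, and outside germ cells 6 of 18 were higher and 3 lower, with a median of 0.66, where the medians over all genes tested were 0.01 and 0.02. Of all genes tested, 27.3% were higher and 26.5% lower over all cells, and 26.9% and 26.2% outside germ cells. The germline and piRNA genes went from 17 higher and 2 lower of 28 to 6 higher and 4 lower of 26. Of the 18 genes of specification, migration and surface, 10 were lower and 2 higher in both sums. The largest differences over all cells were those of Pou3f1 (log2 fold 4.36), a POU factor of neural cells, Tdh (4.22), Nanog (3.90), Utf1 (3.74) and Kitl (−3.55), the ligand of KIT. Outside germ cells they were those of Pou3f1 (4.40), Pecam1 (−3.58), Kitl (−3.53), Elavl2 (3.10) and Tdrd5 (−2.90). Of 11 genes of DNA methylation 4 were higher and 3 lower in both sums, and the families of the 10 members went from 9 higher and 3 lower of 18 to 7 higher and 3 lower.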

How the data were processed

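The deposited files hold whole-number counts of UMIs per gene and barcode for each library, without normalization, made by the authors with Cell Ranger 7.0.1 per the file headers. The submitters' processing notes list Cell Ranger 2.1.1 and mm10 instead. Barcodes with at least 2000 UMIs, 1000 genes and under 25% mitochondrially encoded UMIs were kept. The doublet caller (Scrublet in scanpy 1.11.5) marked only 2 and 0 barcodes in MMPlow 1 and MMPhigh 1, so the highest 6% of its scores were removed from every library, a choice made after seeing the data.

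Cells were clustered on 2000 variable genes without the 10 genes (Leiden, resolution 1). A mixed cluster, from which the germ cells came, was clustered again after seeing the data, and classes were named from 12 marker lists. UMIs were summed per class and library and tested, MMPhigh against MMPlow, with edgeR 4.0.16 under R 4.3.3 (TMM, filterByExpr, robust quasi-likelihood F-test, two-sided, Benjamini-Hochberg over all genes tested, threshold 0.05). Classes needed 20 cells in every library. With 2 libraries against 2, an exact permutation test cannot go below 0.333. Tested on simulated counts, the germ cell fit called 64% of changes simulated at a log2 fold of 2 and the fit of all other cells 93%. A count of 0 allows up to 3 UMIs, and intervals and floors cover counting error only.

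The 10 members and the lists were chosen with earlier results of these data known. In the text all 10 members are named, with the 5 list genes of largest absolute log2 fold among those called in each fit and the 3 to 5 genes most correlated with a member (1 of these is not reported here); other list genes, and single cells and clusters, were named after their values were seen. Alternatives were other cell filters, doublets, clusterings, scalings, DESeq2 1.42.0, a replicate block and leaving out each library. Those that leave out single cells or clusters were added after seeing the data.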

Additional observations from a re-analysis of the deposited data

Results flagged for a closer look

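Ifitm1 differed in direction between classes of cells under the same comparison of gates. Its log2 fold, MMPhigh over MMPlow, was 1.60 in germ cell-like cells. It was −3.41 in erythroid-like, −1.80 in macrophage-like, −2.65 in megakaryocyte-like, −2.54 in mesenchymal-like, −4.67 in muscle progenitor-like and −4.40 in neural or neural crest-like cells. In each of these classes both libraries of 1 gate lay beyond both of the other. The difference between the classes was not tested.

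Dppa5a likewise had a log2 fold of 1.79 in germ cell-like cells and 2.03 in megakaryocyte-like cells, against −1.79 in mesenchymal-like cells. The difference between these classes was not tested either, and single cells gave 101 of the 106 Dppa5a UMIs of megakaryocyte-like cells in MMPhigh 2 and 14 of the 46 of mesenchymal-like cells in MMPlow 1.

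Barcodes under 2000 UMIs, which were left out of the main tests between the gates, held UMIs of the first 7 genes. Their summed level there was 27.3 CPM in MMPlow 1, 24.3 in MMPlow 2, 154.3 in MMPhigh 1 and 31.4 in MMPhigh 2. Of 9465 such barcodes in MMPhigh 1, 29 held at least 3 of the 7 genes, against 1 of 43221 in MMPlow 1 and none of 4127 in MMPlow 2 or of 628 in MMPhigh 2.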

How the results depend on the processing

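The count of members called over all retained cells was 9 or 10 of 10 under all 12 alternatives, and Nanos3 was the only call lost. In germ cells the count of 3 became 7 without the filter on low counts and 6 with the looser cell filter, with members allowed in clustering and at resolution 2, 2 with germ cells taken by germ list UMIs, and 4 to 5 with 1 library left out. The stricter cell filter could not be run there, since it left 0 and 6 MMPlow cells. With germ cells taken by germ list UMIs, 0.813% of all genes tested in them were called. Outside germ cells the count of 4 became 2 with DESeq2's Wald test or without other cells holding 2 members, 7 with doublets kept or as called by Scrublet, and 2 to 4 with 1 library left out. Of all genes tested outside germ cells, 46.4% were called with DESeq2's Wald test and 52.9% without other cells holding 2 members. The share was 53.2% with doublets kept and 53.1% with those called by Scrublet removed. Within the other classes the count of 8 ranged from 6 to 10.

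Directions that turned were all outside germ cells and none was called except Dppa5a without clusters of mostly 1 library. These were Ddx4 with Scrublet's doublets (log2 fold 0.17), with doublets kept (0.32) and with 1 library left out (−0.38 to 0.31), Dnd1 with germ cells taken by germ list UMIs (−0.12), the stricter filter (−0.031), without clusters of mostly 1 library (−0.31) and without other cells with 2 members (−0.42), Dppa3 in the last 2 settings (−0.61 and −0.23), and Dppa5a (−0.65) and Tfap2c (−0.084) without clusters of mostly 1 library. With 1 library left out, Dppa3 ranged from −0.15 to 1.39 and Dppa5a from −0.11 to 1.81, both lowest without MMPhigh 1. Dppa5a in mesenchymal-like cells turned to 1.54 with doublets kept. Leaving out other cells with 2 members drops cells by the genes tested and lowers those genes by construction, so no result rests on it. For the other settings the cause was not tested.

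The log2 fold of the germ cell share was 2.48 with the looser filter (edgeR adjusted p = 0.324) and 2.42 to 3.21 with 1 library left out. It was 3.37 with germ cells taken by germ list UMIs (edgeR adjusted p = 0.00359). That rule takes cells with UMIs of at least 3 of the 17 germ genes, without thinning. Deeper cells meet it more easily, and the part of depth in this value was not tested. With the stricter filter, which left 0 and 6 MMPlow germ cells, it was 4.22 (edgeR adjusted p = 9.48e-06). Unthinned, the share of cells outside the germ class with any of the first 7 genes was 5.07% in MMPlow and 19.8% in MMPhigh, against 2.85% and 5.51% thinned, where MMPhigh 1 stood at 8.67% and MMPhigh 2, at 2.35%, below both MMPlow libraries.

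Libraries of the 2 gates share replicate numbers, but same-numbered libraries' deviations correlated at 0.12 over all cells and 0.01 in germ cells. The labels tie the numbers to no embryo or day, and 2 pairs cannot settle whether they pair the libraries. With a replicate block 10, 4 and 6 members were called over all cells, in germ cells and outside them. Of all genes tested, 52.6%, 9.82% and 53.5% were called there. The germ cell share with that block had a log2 fold of 2.82 (edgeR adjusted p = 0.0395). In the germ cells of MMPlow, a count of 0 allows up to 42.8 CPM in MMPlow 1 and 27.5 CPM in MMPlow 2, and smaller levels were not detectable at this depth.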
